A study of Mus musculus with 14 samples.

Results

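The acute inflammatory cytokines Il6, Lif, Il11, Csf3, Csf2, Il1a, Il1b and Tnf, the receptor antagonist Il1rn and the feedback inhibitor Socs3 were followed through RNA-seq of the mouse superior mesenteric artery (SMA). These 10 genes were chosen by symbol from the 46095 gene symbols of the count table. The 14 mice were C57BL/6 and 8 weeks old, and they formed 4 groups. Normal conditions held 3 WT (Drp1 +/+) and 4 Drp1 KO animals, and the ischemia groups likewise 3 WT and 4 KO animals. KO is the study's name for a heterozygous group whose labels read Drp1 flox/+, and the study's methods describe a CRISPR frameshift allele in exon 2. The study examined its KO mice for exon 2 reads and Drp1 protein, and neither can be read from counts per gene. The labels give 2 h of ischemia, and the study's text a longer period. Ischemia was made by bleeding through the femoral artery, a procedure that the study's methods set out for rats and apply to mice as well. Mice are numbered below as in the labels. The genes lie at chr5:30013114-30019981 (Il6), chr11:98701263-98703629 (Csf3), chr11:117966079-117970047 (Socs3) and chr11:4257557-4272514 (Lif) on GRCm38.

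Il6, Lif and Il11 are ligands whose receptors share the subunit gp130, which activates JAK kinases and the transcription factor STAT3. Socs3 is a target of STAT3 that binds the activated gp130 and JAK and stops the signal. Interleukin-1 and Tnf act mainly through NF-kB and AP-1, which raise the transcription of cytokine genes such as Il6 and Csf3 in vascular wall cells, and Il1rn blocks the interleukin-1 receptor without activating it.

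After ischemia, Csf3 and Socs3 were higher in all 7 ischemic mice than in any of the 7 normal mice, and they were the members that passed the test. Csf3 had 3 counts over all normal mice and entered the test only through the ischemic mice, so its result is a description. Il6 and Lif also had higher means after ischemia, yet did not pass the test. The highest levels of Il6, Csf3, Socs3 and Il1b fell in the same 3 ischemic mice, 1 of them WT and 2 KO. No member passed the test between KO and WT mice under either condition. Tnf was listed at 0 in every mouse, as were most of its neighbours on the chromosome.

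The promoter sequences below are shown because NF-kB, AP-1 and STAT are the factors that act on these genes. Of the 10 members, 9 had an entry in the RefSeq promoter table (build GRCm38.p6), and Csf3 had none. Each run below is the 250 bases before the RefSeq transcription start, 5′ to 3′ on the strand of the gene, for 3 of the members on which the results turn. Capitals mark matches to the NF-kB consensus, to AP-1 (TGANTCA) or to STAT (TTCNNNGAA), searched on both strands. Il6 is at chr5:30012864-30013113 (plus strand), Socs3 at chr11:117969367-117969616 (minus strand) and Lif at chr11:4257318-4257567 (plus strand). The whole Socs3 run lies inside the GENCODE gene position given above, which reaches to 117970047, because RefSeq and GENCODE place its start at different bases. The last bases of the Lif run also lie inside its gene position, which begins at 4257557.
Il6: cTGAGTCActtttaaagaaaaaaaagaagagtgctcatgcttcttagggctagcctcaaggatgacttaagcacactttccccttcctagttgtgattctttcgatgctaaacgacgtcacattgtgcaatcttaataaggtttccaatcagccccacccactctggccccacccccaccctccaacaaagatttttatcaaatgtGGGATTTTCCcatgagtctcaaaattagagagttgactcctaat
Socs3: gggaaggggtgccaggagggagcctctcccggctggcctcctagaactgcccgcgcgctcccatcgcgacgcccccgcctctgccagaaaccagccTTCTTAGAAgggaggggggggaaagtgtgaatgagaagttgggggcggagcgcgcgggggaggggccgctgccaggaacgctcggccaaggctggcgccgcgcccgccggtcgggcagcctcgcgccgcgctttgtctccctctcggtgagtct
Lif: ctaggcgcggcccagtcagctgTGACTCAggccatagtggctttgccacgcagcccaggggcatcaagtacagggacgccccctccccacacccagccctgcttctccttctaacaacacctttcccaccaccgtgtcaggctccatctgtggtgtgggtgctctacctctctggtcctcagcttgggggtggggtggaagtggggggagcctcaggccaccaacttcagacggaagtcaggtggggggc
The Il6 promoter held the NF-kB match GGGATTTTCC, which began 44 bases before the start, and an AP-1 match at 249 bases. Socs3 held a STAT match that began 154 bases before its RefSeq start, and Lif an AP-1 match at 228 bases. No match overlapped another. Over the 9 members, 1 had the NF-kB consensus, 5 had AP-1 (Il6, Il1a, Il1rn, Lif and Il11) and 1 had STAT. These are counts of genes over 12 promoters, since Il1rn had 3 entries and Il11 had 2, which gave them more chances of a match. The shares below are per promoter. Among all 32851 promoters of the table, 3.9% held the NF-kB consensus, 6.75% held AP-1 and 7.02% held STAT. A match is a description of the letters and not a measured binding site.

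Each library held 25612646 to 40255851 counted reads, with a median of 33506452. Levels are given as CPM (each count scaled to the library's total) after TMM scaling (edgeR's trimmed mean of M-values), and 3 counts, taken as the lowest level that a library can show, stood for 0.0678 to 0.113 CPM. Counted reads are not independent molecules, so this floor and the counting intervals below cover counting error only. In each of the 18 pairs of mice within a group the counts differed by more than sampling noise (chi-square per degree of freedom at least 59.1), and all were kept as separate mice. Normal WT mouse 3 was sequenced in lane 1 and the other 13 libraries in lane 8. Dnm1l, which encodes Drp1, stood at 63.8, 65.7 and 90.9 CPM in normal WT mice and at 54.8 to 62.2 CPM in normal KO mice. After ischemia it was at 63.1 to 81.0 CPM in WT and 60.0 to 76.0 CPM in KO mice. The KO against WT difference had an FDR of 0.974 under normal conditions and 0.872 after ischemia in edgeR's quasi-likelihood test. Smooth muscle markers summed to 6939 to 24710 CPM in normal and 18380 to 36080 CPM in ischemic mice, so the muscle of the artery's wall was present in every mouse. Brown adipocyte markers ranged from 176 to 6478 CPM over all mice, with the highest sum in normal WT mouse 2.

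Il6 was not detected in the 3 normal WT mice, with 0 counts in each. In normal KO mice 1 to 4 it was at 0.621, 0, 0.361 and 0.920 CPM. Ischemic WT mice 1 to 3 had 0, 24.5 and 0.332 CPM, and ischemic KO mice 1 to 4 had 2.76, 1.38, 12.6 and 13.5 CPM. The KO mice after ischemia were thus all above the normal KO mice, whereas ischemic WT mouse 1 had no Il6 read at all and the WT mean rested on mouse 2. The mean of the ischemic WT mice was 8.26 ± 14.03 CPM (SD, n = 3), at least 80.4-fold higher than the normal WT mice at their floor of 3 counts per library. In KO mice the mean was 0.476 ± 0.391 CPM under normal conditions and 7.57 ± 6.38 CPM after ischemia (SD, n = 4). The log2 fold change averaged over both genotypes was 7.55 (SE 1.80), with an FDR (Benjamini-Hochberg over the 17693 genes tested) of 0.0820 in edgeR's test, so Il6 did not pass. DESeq2 gave a log2 fold change of 7.19 and FDR = 0.000474, which would pass. Without ischemic WT mouse 2 the edgeR value was 4.77 (FDR = 0.163). Fitted values of genes with groups at 0 depend on the count that the method adds, and they are no bound on the change.

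Lif, the second gp130 ligand, was low and even in the normal WT mice, at 0.295, 0.355 and 0.264 CPM. It was at 1.92, 1.12, 2.24 and 0.368 CPM in the 4 normal KO mice. After ischemia it was at 1.64, 6.16 and 2.21 CPM in WT mice and at 1.16, 2.67, 2.54 and 1.86 CPM in KO mice. Every ischemic WT mouse was therefore above every normal WT mouse, and every normal KO mouse was above every normal WT mouse, though KO mouse 4 exceeded the highest of them by a narrow margin. The normal and ischemic KO mice overlapped. Averaged over both genotypes, the log2 fold change with ischemia was 1.99 (SE 0.45, edgeR FDR = 0.0613), and DESeq2 gave FDR = 0.00117. Within WT mice it was 3.44 (SE 0.73, edgeR FDR = 0.283), and within KO mice it was 0.54 (SE 0.57, FDR = 0.751). Il11, the third ligand of this family, ranged from 0 to 1.27 CPM in normal mice and from 0 to 0.249 CPM in ischemic mice. Its highest value was in normal WT mouse 1, its groups overlapped, and its log2 fold change was −1.95 (SE 1.02, edgeR FDR = 0.329).

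Csf3 encodes G-CSF, the cytokine that drives the production and release of neutrophils. Among the 7 normal mice it had reads only in KO mouse 3, which held 3 counts (0.0678 CPM). Ischemic WT mice 1 to 3 had 0.274, 31.5 and 2.49 CPM, from 9, 926 and 90 counts. Ischemic KO mice 1 to 4 had 5.71, 1.47, 6.05 and 19.9 CPM, from 192, 48, 207 and 656 counts. The lowest ischemic mouse was thus above the highest normal mouse, and the ischemic mice ranged from 0.274 to 31.5 CPM. The mean over ischemic mice was 9.63 ± 11.7 CPM (SD, n = 7). The ratio of summed counts per scaled library, ischemic over normal, was 724 (95% counting interval 247 to 3512). Csf3 was called by the edgeR test, with a fitted log2 fold change of 10.02 (SE 1.52, FDR = 0.0147). It passed the filter on low counts only through the ischemic mice, so this test describes the rise and is no separate support for it. Without ischemic WT mouse 2, which held 926 of the 2128 ischemic counts, the log2 fold change was 8.52 (FDR = 0.0186). The call was lost (FDR = 0.0562) when normal KO mouse 3, the mouse with the 3 counts, was left out, and it held without each of the other 13 mice. Csf2, which encodes GM-CSF, was at 0.223 ± 0.454 CPM in normal and 0.553 ± 0.721 CPM in ischemic mice (SD, n = 7). Its highest values were 2.14 CPM in ischemic WT mouse 2 and 1.24 CPM in normal WT mouse 1, all other mice were at or below 0.526 CPM, and its log2 fold change was 1.501 (SE 1.14, edgeR FDR = 0.496), or 0.57 without ischemic WT mouse 2.

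**Figure D1:**
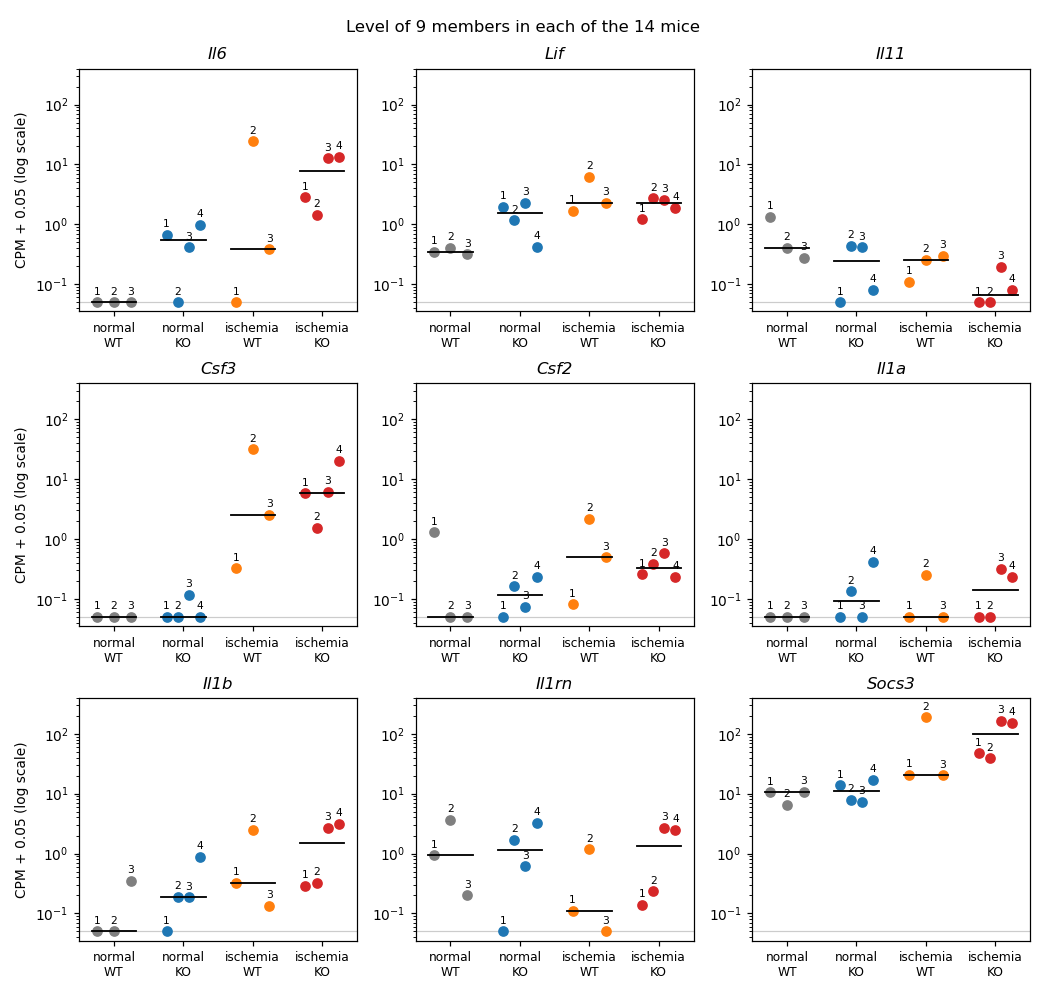
Each point is 1 mouse, with the replicate number beside it, and its height is the TMM-scaled CPM of the gene plus 0.05 on a log axis (the grey line marks 0 counts, the black bars group medians). Csf3 and Socs3 lie higher in all ischemic mice, and ischemic WT mouse 2 and ischemic KO mice 3 and 4 stand above the other 4 ischemic mice in Il6, Il1a, Il1b, Il1rn, Csf3 and Socs3.

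Il1b encodes interleukin-1β, made as an inactive precursor. It was at 0, 0 and 0.302 CPM in normal WT mice and at 0, 0.140, 0.136 and 0.828 CPM in normal KO mice. After ischemia it was at 0.274, 2.45 and 0.0829 CPM in WT mice and at 0.238, 0.276, 2.66 and 3.10 CPM in KO mice. The 3 highest ischemic mice exceeded all normal mice, while the other 4 lay within the normal range. The log2 fold change was 2.85 (SE 1.19, edgeR FDR = 0.235), and 1.68 without ischemic WT mouse 2. Il1a, the gene of the second interleukin-1, had 0 to 12 counts a mouse and did not pass the filter on low counts. Its highest value, 0.368 CPM, was in normal KO mouse 4, and ischemic mice with counts were at 0.182 to 0.263 CPM. A two-sided exact permutation test of log2(CPM + 0.5), with labels permuted within genotype, gave p = 0.571 over 1400 relabelings. Il1rn, which encodes the antagonist of both, had its highest values in normal mice, 3.62 CPM in WT mouse 2 and 3.22 CPM in KO mouse 4. Its means were 1.44 ± 1.46 CPM in normal and 0.932 ± 1.16 CPM in ischemic mice (SD, n = 7). These overlapped, with a log2 fold change of −1.004 (SE 1.15, edgeR FDR = 0.666) that became −2.78 without ischemic WT mouse 2. Exons of Il1a, Il1b and Csf2 overlap the antisense genes Gm14023, Il1bos and Gm12223 in GENCODE M21, and since the use of strand in the counting is not given in the sources used here, reads of these pairs cannot be told apart.

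Tnf had 0 counts in all 14 mice. It lies at chr17:35199381-35202007 (GRCm38), among Ltb, Lta, Lst1, Aif1, Prrc2a, Nfkbil1 and Atp6v1g2, which also had 0 counts, and Ddx39b, which had 1 count. Tnf was part of a run of 29 neighbouring protein-coding genes, from Vwa7 to H2-Q2, with at most 1 count a mouse on average, and 26 of them were at 0 in all mice. Within 500 kb of Tnf, 33 of 60 protein-coding genes (55%) were at 0 in every mouse, against 3997 of 20578 (19.4%) elsewhere. Ddx39b, Prrc2a and Atp6v1g2 are not cytokine genes, and Ddx39b encodes an RNA helicase that most cells use. The 0 of Tnf therefore belonged to a whole stretch without counts, and these files do not show whether Tnf RNA was present.

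**Figure D2:**
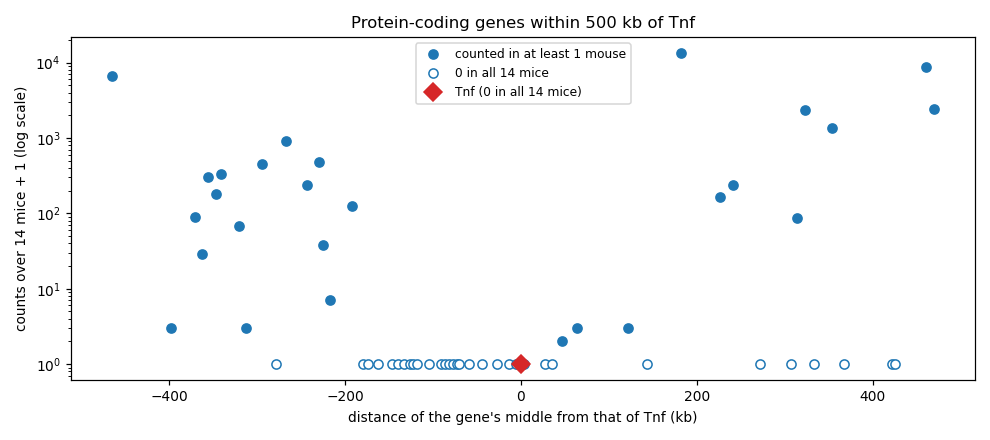
Each point is a protein-coding gene within 500 kb of Tnf, placed by the distance of its middle from that of Tnf in kb, against its counts summed over 14 mice plus 1 on a log axis. Open points and the red diamond (Tnf) had 0 counts in all mice. They form an unbroken stretch from Vwa7 (−179.0 kb) to Atp6v1g2 (35.5 kb), most of it to the left of Tnf, and others lie among counted genes farther out.

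Socs3 was the member with the highest counts, 180 to 5640 a mouse. It was at 10.5, 6.39 and 10.6 CPM in normal WT mice and at 13.8, 7.92, 7.32 and 16.9 CPM in normal KO mice. After ischemia it was at 20.4, 187 and 20.1 CPM in WT mice and at 47.3, 39.0, 165 and 153 CPM in KO mice. All ischemic mice exceeded the highest normal mouse, and within each condition the genotypes overlapped. Ischemic WT mice 1 and 3 were just above the normal range, and ischemic WT mouse 2 was the highest of all. Socs3 rose with ischemia, from 10.5 ± 3.77 to 90.3 ± 74.4 CPM (SD, n = 7), a log2 fold change of 3.09 (SE 0.56, edgeR FDR = 0.0231). The value was 3.05 within WT mice (SE 0.84, FDR = 0.513) and 3.14 within KO mice (SE 0.73, FDR = 0.0928). Without ischemic WT mouse 2 the averaged value was 2.15 and stayed past the limits (FDR = 0.0293), whereas the WT value was 1.13. The call was lost without normal WT mouse 2 (FDR = 0.0622), normal KO mouse 2 (FDR = 0.0593) or normal KO mouse 3 (FDR = 0.0562), with a log2 fold change of 3.00 to 3.02 in each case. It was also lost in an edgeR fit with a block for the replicate number of the mice (FDR = 0.051).

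Per kilobase of exon, which allows levels of different genes to be set side by side, Socs3 had the highest median in ischemic mice, 16.3 CPM per kb (range 6.97 to 64.8). Csf3 followed at 4.04 (range 0.194 to 22.3) and Il6 at 1.14 (range 0 to 10.1). Lif had 0.508, Csf2 0.422, Il1b 0.145, Il1rn 0.0333 and Il11 0.0292 CPM per kb. Each gene overlapped its neighbour in this order, so the order is one of medians alone. In normal mice Socs3 had a median of 3.62 CPM per kb (range 2.21 to 5.84), and its lowest mouse was above the highest mouse of each other member, of which the highest value was 1.55 CPM per kb (Csf2).

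Set against all genes, 2 of the 8 members tested were called with ischemia over both genotypes (FDR under 0.05 and fold change over 1.5), where 0.927% of the 17693 genes tested were called. Of the genes tested, 0.616% were called higher. At an unadjusted p under 0.05 there were 5 of 8 members, against 18.1% of all genes. Csf3 and Socs3, 2 of the 8, had every ischemic mouse above every normal mouse, which held for 0.576% of all genes. The median log2 fold change of the 8 members was 2.42, that of all genes −0.05. The members were chosen with earlier results of these data known, so the shares of all genes describe them and are no test of the set. A member can pass the low-count filter only through the group where it is high, and a difference is then built into its selection. Csf3 passed in this way, with 3 counts over the normal and 2128 over the ischemic mice. Its call and its separation in the counts given here are therefore no support for the set. Il6 had 68 and 1745 counts, and it was also detected in 3 of the 4 normal KO mice. The numbers of members given here therefore describe the 8 that passed and not the 10. DESeq2 called 4 members, Csf3, Il6, Lif and Socs3, where it called 870 of the 17693 genes tested. The DESeq2 calls with ischemia in the lists and markers below are to be set against this number. Within WT mice edgeR called 0 of 8 members and 0.0113% of all genes, with 4 members at an unadjusted p under 0.05 (9.57% of all genes). DESeq2 called 4 members within WT mice, and 108 of all genes. Csf3, Lif and Socs3, 3 of the 8, had every ischemic WT mouse above every normal WT mouse, as 6.63% of all genes did. Within KO mice edgeR called 0 of 8 members and 0.294% of all genes, with 3 members at an unadjusted p under 0.05 (13.2% of all genes). DESeq2 called 2 members within KO mice, and 606 of all genes. Il6, Csf3 and Socs3, again 3 of the 8, had every ischemic KO mouse above every normal KO mouse, as 5.49% of all genes did. The p-values test differences between group means, judged against the spread between these mice.

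**Figure D3:**
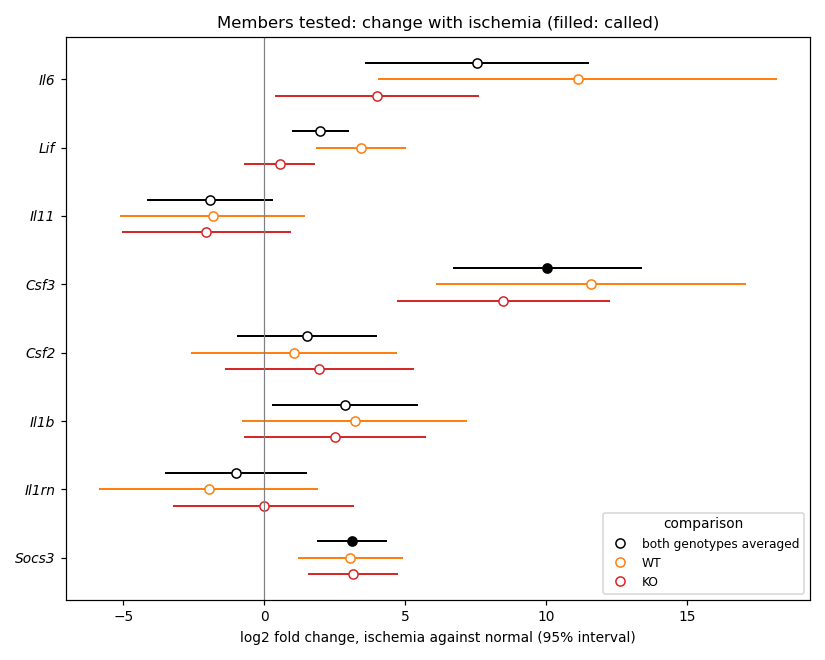
Points are log2 fold changes of the 8 members tested, ischemia against normal conditions, over both genotypes (black), in WT (orange) and in KO mice (red), with 95% intervals as lines and filled points for calls. Csf3 and Socs3 over both genotypes are the filled ones, and the intervals of Il11, Csf2 and Il1rn include 0 in all 3 comparisons.

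KO and WT mice were compared to see whether Drp1 dosage moved these genes. Under normal conditions edgeR called 0 of 8 members and 0% of all genes, with 1 member at an unadjusted p under 0.05 (5.25% of all genes) and 0 members called by DESeq2. That member was Lif, with 1.41 ± 0.838 CPM in KO (n = 4) and 0.305 ± 0.0462 CPM in WT mice (SD, n = 3), a log2 fold change of 2.20 (SE 0.68, edgeR FDR = 0.866). Complete separation of the normal groups in the direction of Lif, 1 of the 8 members tested, held for 2.59% of all genes. Il6 was detected in 3 of 4 normal KO mice and in 0 of 3 normal WT mice, at least 4.63-fold higher in KO mice at the floor of 3 counts per library, and edgeR gave an FDR of 0.960. After ischemia edgeR again called 0 of 8 members and 0% of all genes, with 0 at an unadjusted p under 0.05 (6.48% of all genes) and 0 called by DESeq2. Socs3 differed by a log2 fold change of 0.41 there (95% interval −1.16 to 1.98), Csf3 by −0.46 (−3.02 to 2.10), Il6 by −0.12 (−3.49 to 3.25) and Lif by −0.70 (−1.99 to 0.60). These intervals are wide and do not show that the genotypes were alike. Without ischemic WT mouse 2 the difference of Il6 turned to 5.51 (edgeR FDR = 0.715), that of Csf3 to 2.63 (FDR = 0.715) and that of Lif to 0.15 (FDR = 0.970), and that of Socs3 was 2.37 (FDR = 0.676). The interaction, which tests whether ischemia moved a gene differently in KO and WT mice, was called for 0 of 8 members and 0% of all genes, with 1 member at an unadjusted p under 0.05, which 4.32% of all genes had (Lif, −2.90, SE 0.90, edgeR FDR = 0.946) and 0 members called by DESeq2. For Socs3 it was 0.09 (95% interval −2.14 to 2.31), and it changed sign when any of 7 mice was left out.

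The 3 ischemic mice with the highest Il6 were WT mouse 2 and KO mice 3 and 4. Of the 7 other members tested, 4 (Il1b, Il1rn, Csf3 and Socs3) had their 3 highest ischemic values in the same mice, as had Il1a, which was not among the genes tested. The steps down to the fourth mouse were from 12.6 to 2.76 CPM in Il6, from 2.45 to 0.276 CPM in Il1b, from 1.12 to 0.184 CPM in Il1rn and from 153 to 47.3 CPM in Socs3, but only from 6.05 to 5.71 CPM in Csf3. Among all genes tested, 3.58% had these 3 mice above the other 4. Csf2, Lif and Il11 had another set of 3. The 3 libraries had 31676915, 33603234 and 32194665 counts, within the range of the others. Markers of neutrophils, which also make Il1b, summed to 13.2 CPM in ischemic WT mouse 2, 16.4 CPM in KO mouse 3 and 2.37 CPM in KO mouse 4, against 0.243 to 3.29 CPM in the other 4 ischemic mice and 0.177 to 5.15 CPM in normal mice. All 4 of the 9 neutrophil markers that were tested had positive log2 fold changes and none passed (0 called by edgeR, 0 at an unadjusted p under 0.05 and 0 by DESeq2). Ly6g was at 0 in all 14 mice, and Mpo and Camp were at 0 in all normal mice. Macrophage markers summed to 116 to 441 CPM in normal and 42.4 to 241 CPM in ischemic mice. EdgeR called 0 of these 6, with 2 at an unadjusted p under 0.05 (18.1% of all genes), and DESeq2 called Cd68. The part of these cells in the cytokine levels was not tested. In RNA of whole artery, more cells of a type and more RNA per cell cannot be told apart.

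**Figure D4:**
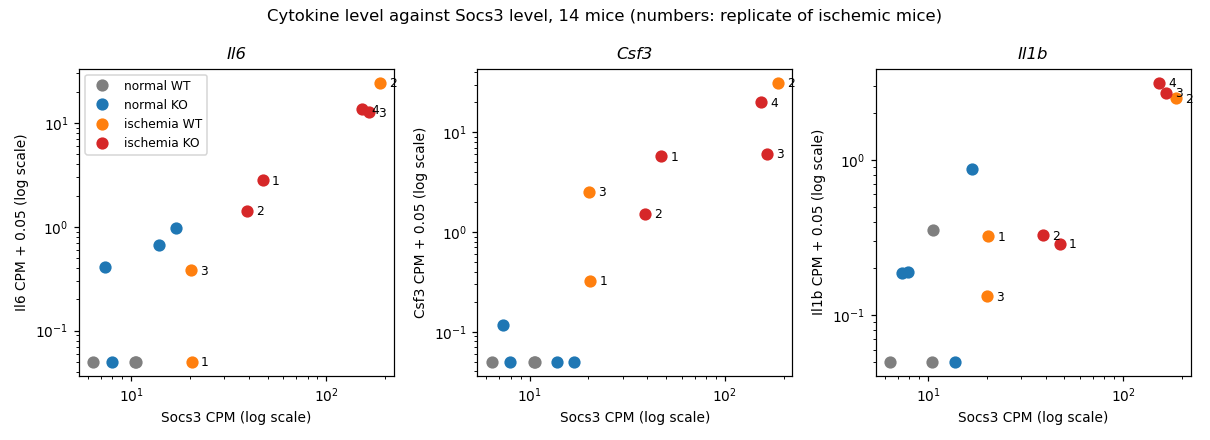
Each point is 1 mouse, with Socs3 CPM on a log x axis against Il6, Csf3 or Il1b CPM plus 0.05 on a log y axis, and numbers are the replicates of the ischemic mice. Ischemic WT mouse 2 and ischemic KO mice 3 and 4 lie at the upper right in all 3 panels, with Socs3 at 153 to 187 CPM.

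Over the 14 mice, log2 CPM of Il6 and Socs3 had a Pearson r of 0.906, and Socs3 was the gene most like Il6 among all genes tested. The next most like Il6 were Cd300lf (r = 0.902), Serpina3m (0.892), the pentraxin gene Ptx3 (0.887) and Nlrp6 (0.873). Cd300lf, Serpina3m and Nlrp6 were near the floor in normal mice, with 27, 18 and 9 counts over all 7 of them. Most like Socs3 were Sema4c (r = 0.955), the P-selectin gene Selp (0.942), Litaf (0.939), the urokinase receptor gene Plaur (0.939) and Zc3h12a (0.939). These values describe 14 libraries that share the 2 conditions, and with the group means removed r was 0.891 between Il6 and Socs3 and 0.787 to 0.887 for the others. Ptx3 rose with ischemia, from 0.294 ± 0.238 to 8.18 ± 8.66 CPM, and Selp from 6.99 ± 3.55 to 93.5 ± 86.1 CPM (SD, n = 7), with edgeR FDRs of 0.0181 and 0.0164. Sema4c, Litaf, Plaur and Zc3h12a were also called, and Cd300lf, Serpina3m and Nlrp6 were not. All were picked for their likeness to Il6 or Socs3 over the same 14 mice, so these calls are no separate support. Between members, r was 0.921 for Csf3 and Socs3, 0.842 for Il1b and Socs3 and 0.841 for Il6 and Csf3. Il11 had negative r with Il6 (−0.475), Lif (−0.326) and Socs3 (−0.405).

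The receptors of these cytokines did not pass the test with ischemia. All 14 receptor genes were tested and edgeR and DESeq2 both called 0, with 2 at an unadjusted p under 0.05 (18.1% of all genes), and the median log2 fold change was 0.02. Il6st, which encodes gp130, was at 299 ± 57.7 CPM in normal and 311 ± 42.9 CPM in ischemic mice (SD, n = 7), a log2 fold change of 0.09 (95% interval −0.22 to 0.39). The smallest p-values were those of the interleukin-1 receptor Il1r1 (log2 fold change 0.57, edgeR FDR = 0.175), the decoy receptor Il1r2 (2.88, FDR = 0.238) and the oncostatin M receptor Osmr (0.51, FDR = 0.373). Il1r1 was at 22.4 to 56.6 CPM in normal and 38.8 to 81.1 CPM in ischemic mice, with overlap. The receptor of G-CSF, Csf3r, which neutrophils carry, was at 1.45 ± 0.854 CPM in normal and 1.45 ± 1.11 CPM in ischemic mice (SD, n = 7).

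Of 20 other ligands of these families, 6 passed the low-count filter. EdgeR called 0 of them, with 2 at an unadjusted p under 0.05 (18.1% of all genes), and DESeq2 called 1, Csf1. Csf1, the macrophage growth factor, was at 70.0 to 160.5 CPM in normal and 124 to 327 CPM in ischemic mice, with a log2 fold change of 1.01 (SE 0.23, edgeR FDR = 0.0636). Il10, an anti-inflammatory cytokine, had its highest value, 4.23 CPM, in ischemic KO mouse 4 and a log2 fold change of 3.77 (SE 1.63, FDR = 0.250). Il33, released by damaged cells, was at 5.84 to 50.9 CPM in normal and 4.35 to 17.2 CPM in ischemic mice (log2 fold change −0.74, FDR = 0.353).

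The lists of related genes were chosen with earlier results of these data known, so shares of all genes only describe them. Of 16 genes for JAK kinases, STATs and other SOCS proteins, 4 had an unadjusted p under 0.05, against 18.1% of all genes. Of the 16, 1 rose and 0 fell, where edgeR called 0.927% of all genes, and DESeq2 called the same 1. It was Socs2, an inhibitor of growth hormone signalling, which was at 27.7 to 64.1 CPM in normal and 83.6 to 169 CPM in ischemic mice, a log2 fold change of 1.63 (SE 0.23, edgeR FDR = 0.00768). Its groups did not overlap, and 0.576% of all genes had every ischemic mouse above every normal mouse. Stat3 had a log2 fold change of 0.43 (FDR = 0.235) and Socs1 of −0.02 (FDR = 0.992), neither of them called. Of 16 genes known to respond to gp130 and STAT3, 11 had an unadjusted p under 0.05, against 18.1% of all genes. The median log2 fold change was 1.40, and 3 genes rose and 0 fell, where edgeR called 0.616% of all genes higher. The 3 were the AP-1 subunits Junb (1.81, FDR = 0.0221) and Fosl2 (1.47, FDR = 0.0260) and the transcription factor Cebpd (1.46, FDR = 0.0472). Junb was at 28.6 to 124 CPM in normal and 110 to 366 CPM in ischemic mice, and Fosl2 at 45.5 to 162 and 125 to 391 CPM. These ranges overlap at the edge. The largest fitted values in this list, Saa3 at 4.01 (FDR = 0.171) and Lcn2 at 3.43 (FDR = 0.0784), did not pass edgeR's test, and DESeq2 called both among 8 genes of the list. With 1 mouse left out, Junb was called in 12 of 14 fits, Fosl2 in 6 (FDR up to 0.0684 in the others) and Cebpd in 2 (FDR up to 0.111). Junb lost it without ischemic WT mouse 2 (FDR = 0.0521) or ischemic WT mouse 3 (FDR = 0.0512).

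Among 10 genes that act on cytokine mRNA decay, Zc3h12a and Zfp36 rose and 0 fell, and DESeq2 called the same 2. There were 3 at an unadjusted p under 0.05, against 18.1% of all genes. Zc3h12a, the endonuclease Regnase-1 that cuts Il6 mRNA, was at 8.73 to 17.5 CPM in normal and 27.7 to 94.2 CPM in ischemic mice, a log2 fold change of 2.13 (SE 0.29, edgeR FDR = 0.00525). Its groups did not overlap, and it was called in all 14 fits with 1 mouse left out. Zfp36, the tristetraprolin gene, whose protein binds AU-rich cytokine mRNAs, was at 77.04 to 249.7 CPM in normal and 291 to 581 CPM in ischemic mice (log2 fold change 1.18, SE 0.23, FDR = 0.0299). It also had no overlap, but was called in 4 of 14 fits with 1 mouse left out (FDR up to 0.0717). Of 10 genes of cytokine release and processing, 9 were tested and 1 was called, Rhbdf2, where edgeR called 0.927% of all genes. Rhbdf2 encodes iRhom2, a partner of the Tnf sheddase, and rose by 0.82 on the log2 scale (SE 0.18, edgeR FDR = 0.0472). It was called in 2 of 14 fits with 1 mouse left out (FDR up to 0.109). An unadjusted p under 0.05 was reached by 7 of the 9, against 18.1% of all genes, and DESeq2 called Rhbdf2 and Pycard. The inflammasome sensor Nlrp3 had a log2 fold change of 2.15 (FDR = 0.251), the adaptor Pycard of −0.76 (FDR = 0.184), the DNA sensor Aim2 of −2.34 (FDR = 0.217) and the protease Casp1 of −1.05 (FDR = 0.248). Of the 70 genes of these 6 lists that were tested, edgeR called 0 between the genotypes in normal mice, with 6 at an unadjusted p under 0.05 (5.25% of all genes). DESeq2 called 1 of the 70 there, and 41 of all genes. After ischemia edgeR called 0 of the 70, with 1 at an unadjusted p under 0.05 (6.48% of all genes) and 0 called by DESeq2.

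**Figure D5:**
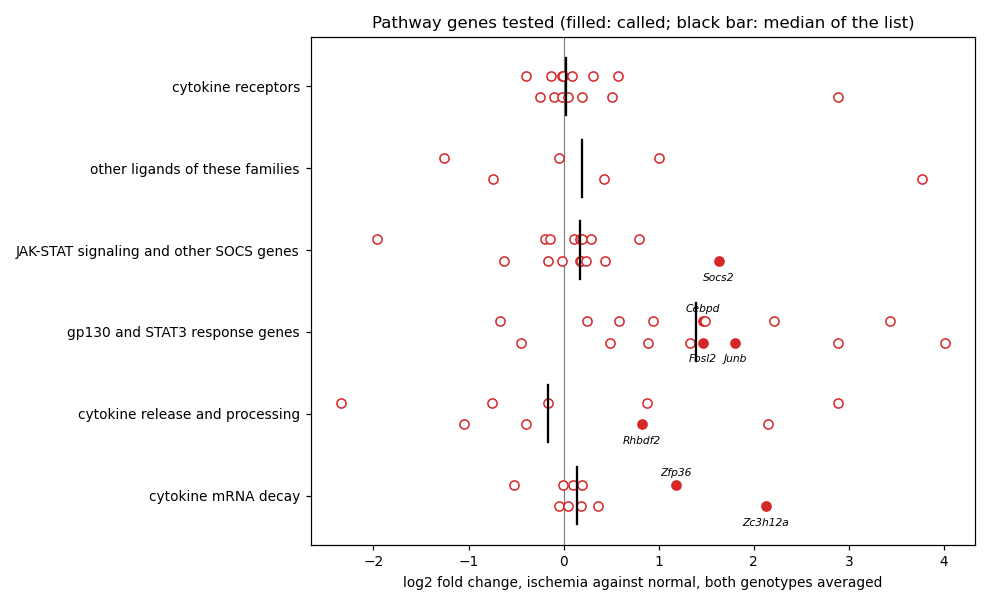
Each point is a tested gene of the 6 lists of related genes, placed by its log2 fold change with ischemia over both genotypes, filled where called, and the black bar is the median of the list. The 7 filled points, Socs2, Junb, Fosl2, Cebpd, Rhbdf2, Zc3h12a and Zfp36, lie to the right of 0, and the receptors lie around 0 except for Il1r2.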

How the data were processed

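The authors deposited whole-number read counts per gene symbol and mouse, without normalization. Alignment with HISAT2 2.0.4 to mm10 is named in the submitters' processing notes; the counting program, annotation and use of strand are not given in the sources used here, so overlapping genes may share reads. Columns were matched to mice by their labels, and 0 columns were left unused. The test was edgeR's (version 4.0.16, in R 4.3.3; filterByExpr, TMM, quasi-likelihood F-test), in a single fit of all 14 mice with 4 group means and 6 comparisons, Benjamini-Hochberg adjustment over the 17693 genes tested and limits of 0.05 on the FDR and 1.5 on the fold change. A model for counts replaced the F-test of the study's methods. Il1a, which the filter removed, had a two-sided exact permutation test. Alternatives were DESeq2 1.42.0, other scalings, filters and fits, and each mouse left out. Scripts were tested on simulated data.

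The members and lists were chosen with earlier results of these data known. Named are all members, the called genes of each list (otherwise the 3 with the smallest p), Dnm1l and the 5 genes most correlated with Il6 and with Socs3 (log2 CPM, prior count 2); genes outside this rule, such as Il6st, Stat3, Nlrp3, Aim2, Pycard, Saa3, Csf3r, Cd68 and Osm, were chosen after their values were seen. Positions and exon lengths come from GENCODE M21 (GRCm38).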

Additional observations from a re-analysis of the deposited data

Results flagged for a closer look

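Of 18 sets of values of a member in a group of 4 mice, 2 had a mouse far from the others by Dixon's criterion. Its chance rate of about 1 in 20 groups is for normally distributed values, and does not hold for low counts with many values of 0. Normal KO mouse 4 stood at 0.828 CPM in Il1b, against 0 to 0.140 CPM in the other 3 normal KO mice, with a gap of 0.831 of the range. Normal KO mouse 3 was the mouse of its group with Csf3 reads, at 0.0678 CPM from 3 counts, with the other 3 at 0 and a gap ratio of 1. With the others at 0, any count gives this ratio.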

How the results depend on the processing

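Over both genotypes, the number of genes called with ischemia was 164 in the analysis reported, 870 with DESeq2, 521 with the brown adipocyte marker level as a covariate (chosen after seeing the data) and 60 to 361 with 1 mouse left out. The members called were 2, and 4 with DESeq2, 4 with that covariate, 1 with the filter of 10 counts in 7 mice (4 members tested) and 0 to 3 with 1 mouse left out, the 0 without normal KO mouse 3. Within WT mice, 2 genes were called, 108 with DESeq2, 5 with the covariate, 0 in a fit of only the groups compared and 0 to 3 with 1 mouse left out. DESeq2 called 4 members there. Within KO mice, 52 genes were called, 606 with DESeq2, 356 with the covariate, 267 in a fit of only the groups compared and 5 to 174 with 1 mouse left out. The members called there were 0, and 2 with DESeq2, 2 with the covariate, 2 in the fit of only the groups compared, 1 without a filter on low counts and 0 to 2 with 1 mouse left out. Between the genotypes, DESeq2 called 41 genes in normal mice, 18 after ischemia and 11 for the interaction, where edgeR called 0. With 1 mouse left out the first was 0 to 29, the 29 without normal WT mouse 2.

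With a replicate block, 1 member was called over both genotypes, since Socs3 had FDR = 0.0510, and 0 genes within WT mice. The log2 fold change of Csf3 between KO and WT mice after ischemia turned from −0.46 to 0.62. The log2 fold change of Il6 there turned from −0.12 to 0.77. Same-numbered mice are different animals, and the sources used here name no litter, batch or day that they share. Deviations from the group means correlated above 0.1 in 11 of 19 same-numbered pairs (median 0.12) and in 9 of 54 other pairs (median −0.045). Same-numbered pairs were thus more alike than the others, though not every one of them. The analysis reported has no block, and whether the mice share a source is not known and was not tested.

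The Socs3 difference of normal KO from normal WT mice went from 0.33 to −0.014 with the covariate. With 1 mouse left out, differences between KO and WT mice after ischemia ran from −0.71 to 5.51 for Il6, −1.37 to 2.63 for Csf3, −1.02 to 0.15 for Lif and −0.038 to 2.37 for Socs3, and the interaction of Socs3 from −0.36 to 2.05, all without a call. The causes were not tested. Over both genotypes, Csf3 and Socs3 had positive log2 fold changes under all alternatives. No other scaling moved the median of all genes by over 0.1. Depth limits Il1a (0 to 12 counts a mouse) and the normal levels of Csf3 (0 to 3 counts). The biological coefficient of variation between mice was 0.522.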

Other observations

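Osm, which encodes another gp130 ligand, did not pass the low-count filter and was picked after its values were seen. It had 1 count over the 7 normal mice, 1 count over the 3 ischemic WT mice and 47 counts over the 4 ischemic KO mice, each of which had reads (0.0892 to 0.731 CPM). The difference between genotypes was not tested. Its receptor subunit Osmr was at 55.4 to 193 CPM in ischemic WT and 51.4 to 112 CPM in ischemic KO mice. T cell marker Cd3g fell with ischemia, with a log2 fold change of −4.78 (SE 0.90, edgeR FDR = 0.0322), and the 4 T cell markers summed to 0.505 to 14.4 CPM in normal and 0 to 1.32 CPM in ischemic mice. The 5 erythroid markers summed to 107 to 592 CPM in normal and 4.62 to 186 CPM in ischemic mice. EdgeR called 0 of these markers, with 5 at an unadjusted p under 0.05 (18.1% of all genes), and DESeq2 called 5. T cells can make Csf2 and Lif, and the part of these cells in the members' levels was not tested.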
